A study of Mus musculus with 28 samples.

Results

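The platelet-derived growth factor (PDGF) system of the mouse consists of the ligand genes Pdgfa, Pdgfb, Pdgfc, and Pdgfd and the receptor genes Pdgfra and Pdgfrb. These 6 genes were chosen by name from the 52636 genes of the count table, and all 6 passed the filter on low counts that left 19101 genes for testing. The high level of Pdgfra at E13 and E14 was part of the choice, so it is given here as a description. The samples are single Molar 1 tooth germs of untreated wild type C57BL/6JOlaHsd embryos, with 7 teeth from 7 embryos at E13 (bud stage), 7 teeth from 6 embryos at E14 (cap stage), and 7 teeth from 5 embryos at E16 (bell stage). In the labels these 3 stages are called E13.5, E14.5 and, for the bell stage, E16.5. A second table adds 6 teeth of E15. Each library is a whole tooth germ in which epithelium, mesenchyme, vessels, and a little adjoining tissue are mixed, so a change in the number of cells of a type and a change in the RNA per cell cannot be told apart.

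PDGF ligands are secreted dimers that bind receptor tyrosine kinases on neighboring cells, where they promote proliferation, migration, and survival, mostly of mesenchymal cells. The products of Pdgfa and Pdgfc act mainly through PDGFRα, the receptor of embryonic mesenchyme, and in many organs these ligands are made by epithelium. The product of Pdgfb is the signal by which endothelium recruits pericytes and other mural cells, which carry PDGFRβ, and the product of Pdgfd also acts through PDGFRβ. In developing teeth, signaling from Pdgfa in the epithelium to Pdgfra in the mesenchyme is known for its part in the growth of cusps.

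The 250 bases before the RefSeq transcription start (GRCm38.p6) are shown for Pdgfc and Pdgfra, the genes that fell together between E13 and E16, and for Pdgfa, which passed no test of a change in the 21 teeth, at the start with more GC boxes. Capitals mark GC boxes, searched as GGGCGG on both strands, and the remaining bases are in lower case.
Pdgfc, chr3:81036166-81036415, plus strand: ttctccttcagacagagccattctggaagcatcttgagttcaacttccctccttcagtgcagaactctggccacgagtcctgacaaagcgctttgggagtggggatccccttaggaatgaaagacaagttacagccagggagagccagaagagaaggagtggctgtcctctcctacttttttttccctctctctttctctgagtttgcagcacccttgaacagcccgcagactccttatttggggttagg
Pdgfra, chr5:75152001-75152250, plus strand: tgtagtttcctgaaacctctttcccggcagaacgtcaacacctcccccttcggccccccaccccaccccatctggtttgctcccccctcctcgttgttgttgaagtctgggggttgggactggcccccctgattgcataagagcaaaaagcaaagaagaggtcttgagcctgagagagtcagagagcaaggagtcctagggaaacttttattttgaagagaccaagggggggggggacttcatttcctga
Pdgfa, chr5:138994945-138995194, minus strand: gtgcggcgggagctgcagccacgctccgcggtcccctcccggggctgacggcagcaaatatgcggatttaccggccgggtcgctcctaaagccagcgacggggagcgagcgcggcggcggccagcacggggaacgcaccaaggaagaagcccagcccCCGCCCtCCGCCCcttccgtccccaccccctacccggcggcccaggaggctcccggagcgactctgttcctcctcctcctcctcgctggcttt
The Pdgfc and Pdgfra windows held none of the 4 motifs searched, which were the GC box, the CCAAT box (CCAAT), the TATA box (TATAAA), and a site of EGR factors (GCGTGGGCG). The Pdgfa window held 2 GC boxes on the reverse strand, and the window of the second Pdgfa start held 1. The window of Pdgfd held 1 TATA box. Among 32851 RefSeq promoter windows of the same length, a GC box was found in 32.7%, a CCAAT box in 33.8%, a TATA box in 12.4%, and the EGR site in 0.536%. The letters G and C made up 50.8% of the Pdgfc window, 54.4% of the Pdgfra window, and 72.4% of the Pdgfa window shown. A match describes letters only, and no binding was measured in these samples.

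The genes are spread over the genome (GRCm38 coordinates of the annotation). Pdgfa (ENSMUSG00000025856) lies on the minus strand at chr5:138976014-138997370, and Pdgfb (ENSMUSG00000000489) on the minus strand at chr15:79995874-80014977. Pdgfc (ENSMUSG00000028019) lies on the plus strand at chr3:81036416-81214040, and Pdgfd (ENSMUSG00000032006) on the plus strand at chr9:6168584-6378850. The receptor genes Pdgfra (ENSMUSG00000029231) and Pdgfrb (ENSMUSG00000024620) lie on the plus strand at chr5:75152292-75198215 and chr18:61045150-61085061. The antisense gene 6330403L08Rik shares 813 exon bases with Pdgfa, or 26.1% of the exons of Pdgfa, and had a mean count of 318. Because the strand setting of the counting is not given in the sources used here, reads of this pair may not be fully separated. All other overlapping genes that were listed had at most 17 counts in any tooth.

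The depth was between 17814073 and 27115729 counts per tooth over the 21 libraries. At E16, the tooth from the left side of embryo 3 had the fewest counts and stood apart from the other 6 E16 teeth in all 6 genes. After normalization it was the lowest E16 tooth in Pdgfa, Pdgfb, Pdgfc, Pdgfra, and Pdgfrb and the highest in Pdgfd. Its normalized count of Pdgfra was 4952 against 8277 to 8625 in the other E16 teeth, and its count of Pdgfrb was 1491 against 3555 to 4799. The summed level of 10 dental mesenchyme markers was 47118 in this tooth and 108651 to 124336 in the other E16 teeth, and the sum of 10 endothelium markers was 3986 against 8260 to 10837. The sum of 10 epithelium markers was also lowest in it, at 53850 against 83125 to 95118. Protein-coding genes took 84.7% of its counts, within the 74.1% to 90.8% of the other E16 teeth. Because all stages share an estimate of the spread between teeth, this tooth bears on each test, and each call of a PDGF gene that changed when it was left out is given both ways. The 3 comparisons share their teeth and are not independent of each other.

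No marker of any cell type list was at 0 in all teeth. Of all genes tested, 11.3% were called higher and 8.47% lower from E13 to E14, and 15% and 13.1% from E14 to E16. All 10 epithelium markers were higher at E14 than at E13 and higher again at E16 than at E14, and the median of their sum was 24456, 45152, and 87849 at E13, E14, and E16. The sum of the 10 mesenchyme markers had medians of 126953, 120239, and 115909. Of the mesenchyme markers, 3 were lower and none higher at E14 (3 lower and 2 higher, Vim and Barx1, without the left tooth of embryo 3 at E16), and 6 were lower and 1 higher from E14 to E16. The 1 higher was Col3a1, the largest part of the sum at each stage, with means of 43480, 41710, and 59020. The sum thus changed less than most of its markers. The medians of the endothelium sum were 6965, 8266, and 8999, and those of the mural cell sum 10912, 12645, and 13474. The medians of the red cell sum were 7057, 4135, and 1240, those of cartilage 4160, 2097, and 1810, of bone 5543, 5458, and 9750, and of Schwann cells and glia 1284, 1349, and 1875. The skeletal muscle sum reached 6485 in 1 E13 tooth and had medians of 273, 335, and 130. The part of these shifts in the changes of the PDGF genes was not tested.

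**Figure D1:**
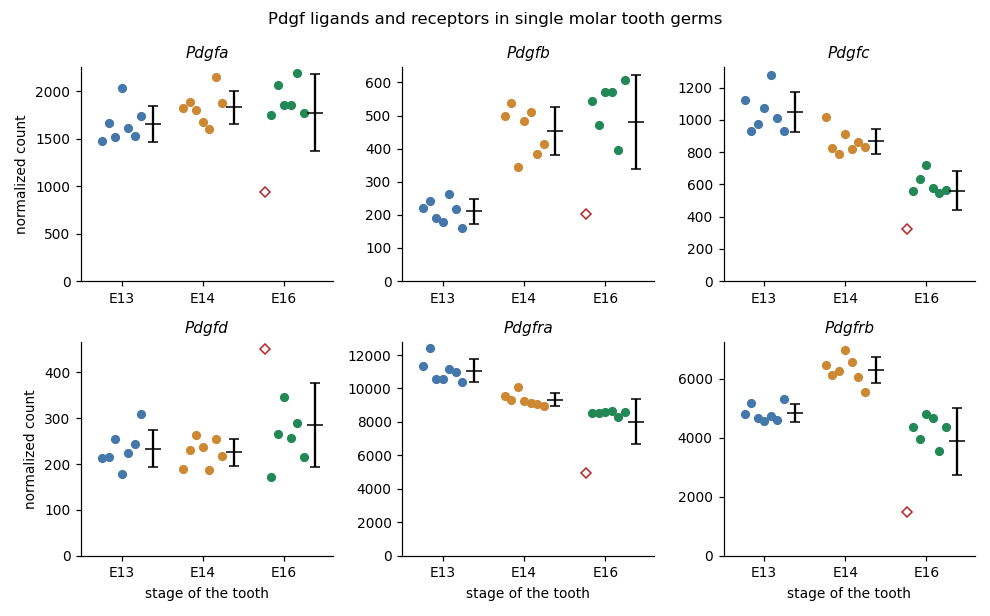
Normalized count (counts divided by DESeq2 size factors) of the 6 PDGF genes in each of the 7 teeth of E13, E14, and E16, with the mean and SD in black beside the points and, as an open red diamond, the E16 left tooth of embryo 3. The mean of Pdgfb is 210 at E13 and 453 at E14, the means of Pdgfc and Pdgfra are lower at each later stage, and the mean of Pdgfrb is highest at E14, at 6279.

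Of the 6 genes, 1 was called from E13 to E14, 2 from E14 to E16, and 3 from E13 to E16, where 19.7%, 28.1%, and 41.3% of all genes were called. In fits without the left tooth of embryo 3 these counts were 4, 3, and 5, where 30.4%, 34.3%, and 48.7% of all genes were called. Of the 4 ligands, Pdgfb rose from E13 to E14 and Pdgfc fell from E14 to E16, whereas the changes of Pdgfa and Pdgfd did not pass the test in any comparison of the 21 teeth. Pdgfb, the ligand of endothelium, had a mean normalized count of 210 ± 36.8 (SD, n = 7) at E13, 453 ± 72.7 at E14, and 481 ± 142 at E16. By tooth, the lowest, median, and highest had 160, 218, and 264 at E13, 343, 484, and 538 at E14, and 203, 544, and 607 at E16. Every E14 tooth was thus above every E13 tooth, and at E16 only the left tooth of embryo 3 fell to the range of E13. The log2 fold change from E13 to E14 was 1.10 (SE 0.18, edgeR adjusted p = 6.025e-05). Of all genes tested, 11.3% were called higher and 8.47% lower in this comparison, and the teeth did not overlap for 9.92%. From E14 to E16 the difference was 0.08 on the log2 scale (adjusted p = 0.764), and 0.23 (adjusted p = 0.155) without the left tooth of embryo 3. From E13 to E16 the log2 fold change was 1.18 (SE 0.18, adjusted p = 6.137e-06), in a comparison where 21.6% of all genes were called higher.

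Pdgfb was also set against the vessel markers. As a share of the endothelium sum, its count was 3.08% ± 0.47 (SD, n = 7) at E13, 5.66% ± 1.32 at E14, and 5.66% ± 0.93 at E16. Its lowest share at E16 was 4.50%, above the highest share of 3.79% at E13, and so the left tooth of embryo 3 did not fall to the range of E13 on this scale. At E14 the lowest share was 3.70%, just within the range of E13. Of the endothelium markers, 1 of 10 was higher at E14 than at E13 (3 without the left tooth of embryo 3 at E16) and none lower, and the median of their log2 fold changes was 0.07. Against 8 markers of megakaryocytes and platelets, a blood source of this ligand, the sum had medians of 281, 312, and 355 at the 3 stages, and 1 of 6 tested markers was higher at E14. The part of either cell type in the level of Pdgfb was not tested.

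Pdgfc, a ligand of PDGFRα that is made as a latent form and activated by proteases, fell from E14 to E16. Its mean normalized count was 1045 ± 124 (SD, n = 7) at E13, 866 ± 77.3 at E14, and 560 ± 122 at E16. By tooth, the lowest, median, and highest had 928, 1014, and 1276 at E13, 789, 834, and 1018 at E14, and 320, 563, and 721 at E16. All E16 teeth were below all E14 teeth, as for 4.95% of all genes, while the ranges of E13 and E14 overlapped. The log2 fold change was -0.63 (SE 0.12, adjusted p = 0.0002176) from E14 to E16, where 15% of all genes were called higher and 13.1% lower, and -0.91 (SE 0.12, adjusted p = 1.008e-06) from E13 to E16, where 19.6% were called lower. From E13 to E14 it was -0.27 (SE 0.12, adjusted p = 0.1016), and without the left tooth of embryo 3 at E16 it was -0.28 (adjusted p = 0.009906). As a share of the mesenchyme marker sum, Pdgfc was 0.824% ± 0.13, 0.723% ± 0.057, and 0.542% ± 0.077 at the 3 stages. Col3a1, the largest marker of this sum, rose from E14 to E16 while 6 of the 10 markers fell. The lower share of Pdgfc at E16 therefore depends on Col3a1, and shares without it were not computed. As a share of the epithelium marker sum, Pdgfc was 4.32% ± 1.06, 1.91% ± 0.24, and 0.661% ± 0.087. The epithelium markers rose to unlike extents, from 0.84 (Epcam) to 2.46 (Krt15) on the log2 scale between E13 and E16. The size of the fall in this share therefore depends on the markers used.

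Pdgfa, the ligand of PDGFRα that many epithelia make, passed no test of a change in the 21 teeth. Its mean normalized count was 1652 ± 193 (SD, n = 7) at E13, 1829 ± 174 at E14, and 1774 ± 403 at E16. By tooth, the lowest, median, and highest had 1470, 1609, and 2035 at E13, 1601, 1820, and 2147 at E14, and 936, 1855, and 2186 at E16, and the ranges of all 3 stages overlapped. The log2 fold change was 0.15 (SE 0.12, adjusted p = 0.436) from E13 to E14 and -0.05 (SE 0.12, adjusted p = 0.803) from E14 to E16. Without the left tooth of embryo 3 the latter became 0.08 (adjusted p = 0.483), and the change from E13 to E16 moved from 0.10 (adjusted p = 0.559) to 0.22 (adjusted p = 0.01869). Against the epithelium marker sum, which rose in each comparison, Pdgfa came to 6.70% ± 0.75 at E13, to 4.01% ± 0.31 at E14, and to 2.08% ± 0.26 at E16, and these ranges did not overlap. From E13 to E16 the log2 fold changes of the 10 markers ranged from 0.84 (Epcam) to 2.46 (Krt15). The size of the fall in this share therefore depends on the markers used.

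Pdgfd, the ligand of PDGFRβ, had mean normalized counts of 234 ± 40.6 (SD, n = 7), 225 ± 29.5, and 285 ± 91.7 at E13, E14, and E16. By tooth, the lowest, median, and highest had 179, 223, and 308 at E13, 187, 231, and 262 at E14, and 171, 266, and 452 at E16. Teeth of all stages overlapped, and the highest of all was the left tooth of embryo 3 at E16. The log2 fold change was -0.05 (SE 0.16, adjusted p = 0.8597) from E13 to E14, 0.33 (SE 0.16, adjusted p = 0.1272) from E14 to E16, and 0.28 (SE 0.16, adjusted p = 0.171) from E13 to E16. Without the left tooth of embryo 5 at E16, whose count of 171 was the lowest, the last 2 became 0.44 (adjusted p = 0.0307) and 0.39 (adjusted p = 0.0413). Without the left tooth of embryo 3 they were 0.20 (adjusted p = 0.283) and 0.15 (adjusted p = 0.400).

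Of the receptors, Pdgfra fell from E13 to E16 and Pdgfrb from E14 to E16. Pdgfra, the receptor of mesenchyme, had a mean normalized count of 11067 ± 680 (SD, n = 7) at E13, 9334 ± 379 at E14, and 8007 ± 1352 at E16. Each stage was thus lower on average than the stage before it. By tooth, the lowest, median, and highest had 10399, 10961, and 12396 at E13, 8943, 9238, and 10062 at E14, and 4952, 8530, and 8625 at E16. Thus the ranges of the 3 stages did not overlap. Between E13 and E16 the teeth did not overlap for 18.7% of all genes, and for 8.87% the E16 teeth were the lower ones. The log2 fold change from E13 to E16 was -0.47 (SE 0.09, adjusted p = 0.0001751). For the single steps it was -0.25 (SE 0.09, adjusted p = 0.05739) from E13 to E14 and -0.23 (SE 0.09, adjusted p = 0.06745) from E14 to E16, neither past the threshold although the teeth did not overlap. Of all genes tested, 3.49% were lower without overlap in the former step and 4.95% in the latter. The steps were -0.25 (adjusted p = 7.639e-05) and -0.12 (adjusted p = 0.0348) in the fit without the left tooth of embryo 3. The mean of the other 6 E16 teeth was 8516 ± 124. As a share of the mesenchyme marker sum, Pdgfra came to 8.69% ± 0.55 at E13, to 7.80% ± 0.50 at E14, and to 7.83% ± 1.21 at E16, with ranges that overlapped. Col3a1, the largest marker of this sum, rose from E14 to E16 while 6 of the 10 markers fell, so the share depends on it. Shares without Col3a1 were not computed.

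Pdgfrb, the receptor of mural cells that mesenchyme also makes, was highest at the cap stage. Its mean normalized count was 4837 ± 291 (SD, n = 7) at E13, 6279 ± 441 at E14, and 3884 ± 1135 at E16. By tooth, the lowest, median, and highest had 4563, 4717, and 5302 at E13, 5562, 6244, and 6960 at E14, and 1491, 4345, and 4799 at E16. All E14 teeth lay above all teeth of the other stages, and 4.95% of all genes were lower without overlap from E14 to E16. The fall from E14 to E16 had a log2 fold change of -0.70 (SE 0.15, adjusted p = 0.0009811), and of -0.54 (adjusted p = 1.8e-07) without the left tooth of embryo 3. The step from E13 to E14 was 0.37 (SE 0.15, adjusted p = 0.0814), and 6.43% of all genes were higher without overlap in this step. With the left tooth of embryo 3 left out it was 0.37 (adjusted p = 3.304e-05). The difference between E13 and E16 was -0.32 (SE 0.15, adjusted p = 0.08868), and -0.17 (adjusted p = 0.02668) without that tooth.

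The peak of Pdgfrb was read against mural cells and mesenchyme. Relative to the sum of 10 mural cell markers, Pdgfrb was 43.3% ± 2.8 (SD, n = 7) at E13, 49.8% ± 2.7 at E14, and 29.0% ± 5.7 at E16. At E16 the shares reached at most 35.6%, below the lowest share of 39.9% at E13. Of the 9 mural markers tested, 4 were higher and 1 lower from E13 to E14, and 2 were higher and 1 lower from E14 to E16. In these comparisons 11.3% and 15% of all genes were higher, and 8.47% and 13.1% lower. Relative to the mesenchyme sum, Pdgfrb was 3.80% ± 0.23, 5.24% ± 0.31, and 3.63% ± 0.37, and every E14 tooth (at least 4.63%) was above every other tooth (at most 4.18%). The largest marker in this sum, Col3a1, had a mean of 41710 at E14 and 59020 at E16, while 6 of the 10 markers fell. The lower share at E16 therefore depends on Col3a1, and shares without it were not computed. The part of either cell type was not tested.

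**Figure D2:**
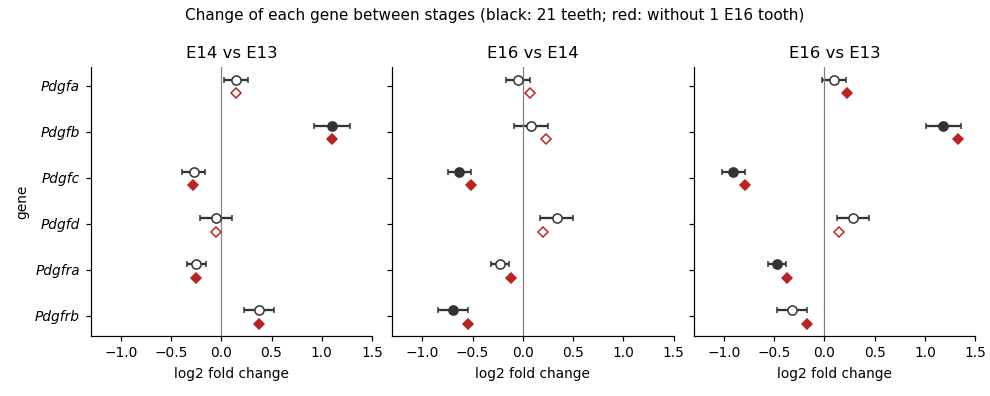
Log2 fold change of each PDGF gene between stages on the x axis, in 3 panels, for the 21 teeth (black circles, bars are SE) and for 20 teeth without the left tooth of embryo 3 at E16 (red diamonds). Filled symbols passed an adjusted p of 0.05, as Pdgfb did from E13 to E14 at 1.10 and Pdgfc from E14 to E16 at -0.63.

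To compare levels between genes, the normalized counts were divided by the summed exon length in kilobases. At E13 the mean level per kilobase was 1104 for Pdgfra, 883 for Pdgfrb, 530 for Pdgfa, 205 for Pdgfc, 74.1 for Pdgfd, and 50.6 for Pdgfb. Neighbors in this order did not overlap except Pdgfd and Pdgfb, although Pdgfd was above Pdgfb in each of the 7 teeth. At E14 the order was Pdgfrb at 1146, Pdgfra at 931, Pdgfa at 587, Pdgfc at 170, Pdgfb at 109, and Pdgfd at 71.4, with overlap of the last pair alone. At E16 the levels of Pdgfra (799), Pdgfrb (709), and Pdgfa (569) overlapped between neighbors, as did those of Pdgfb (115), Pdgfc (110), and Pdgfd (90.4), and every tooth had more Pdgfa than Pdgfb. Among the genes tested, Pdgfra at E13 was at percentile 97.2 of this scale and Pdgfb at percentile 36.6.

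Within each tooth, the ratio of Pdgfra to Pdgfrb per kilobase was 1.25 ± 0.083 (SD, n = 7) at E13, 0.815 ± 0.057 at E14, and 1.20 ± 0.29 at E16. It ranged from 1.07 to 1.31 at E13 and from 0.725 to 0.881 at E14, without overlap. At E16 the ratio was 1.82 in the left tooth of embryo 3 and 0.976 to 1.27 in the others, above all E14 teeth. Which receptor was higher at E14 depends on the length used. With the longest transcript of each gene the ratio was 1.82 ± 0.12, 1.18 ± 0.083, and 1.74 ± 0.42, so that Pdgfra was above Pdgfrb at all 3 stages, while the dip at E14 does not depend on the length.

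Among the ligands, the share of Pdgfb was higher and that of Pdgfc lower at the later stages. Pdgfa made up 61.5% ± 3.7 (SD, n = 7), 62.5% ± 2.8, and 63.7% ± 5.3 of the summed ligand level per kilobase at E13, E14, and E16. The share of Pdgfc was 23.9% ± 2.7, 18.2% ± 1.6, and 12.4% ± 1.2, whereas that of Pdgfb was 5.91% ± 1.11, 11.7% ± 2.1, and 12.9% ± 2.9. Pdgfd held 8.68% ± 1.70, 7.63% ± 0.97, and 11.1% ± 6.7, with 25.8% in the left tooth of embryo 3 at E16. The ratio of Pdgfa to Pdgfc, both ligands of PDGFRα, was 2.61 ± 0.42, 3.47 ± 0.44, and 5.19 ± 0.71, and all E16 teeth (at least 4.20) were above all E14 teeth (at most 4.07). The ratio of summed receptors to summed ligands was 2.32 ± 0.20, 2.23 ± 0.20, and 1.69 ± 0.21. It was at most 1.92 in the E16 teeth and at least 1.95 in the E14 teeth.

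**Figure D3:**
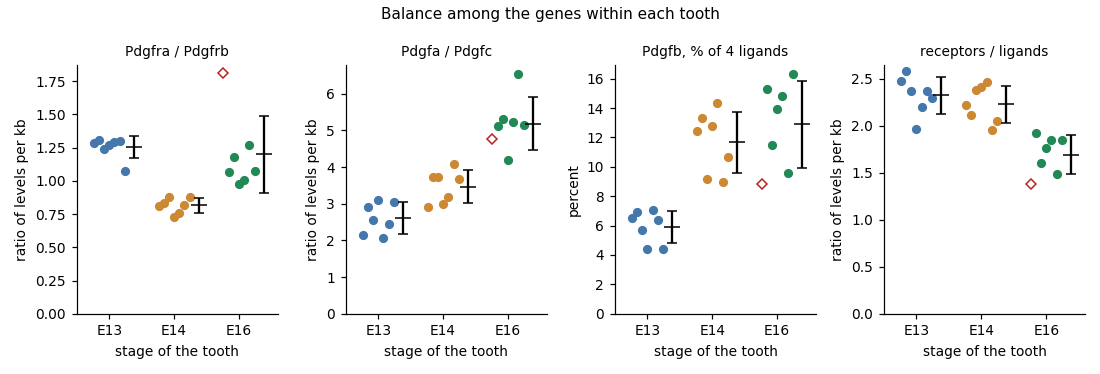
Ratios and shares of levels per kilobase within each tooth (points, with the mean and SD in black and, as an open red diamond, the E16 left tooth of embryo 3), by stage. The ratio of Pdgfra to Pdgfrb dips at E14 to between 0.725 and 0.881, the ratio of Pdgfa to Pdgfc climbs from 2.61 to 5.19, the share of Pdgfb rises from 5.91% to 11.7% at E14, and the ratio of receptors to ligands is lowest at E16.

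Some embryos gave both a left and a right tooth. In the E14 embryo with both teeth, the left tooth had 2147 and the right tooth 1601 normalized counts of Pdgfa, which are the highest and lowest values of the stage. In the same pair Pdgfra was 9074 and 9129. In the pairs of embryos 6 and 8 at E16, Pdgfrb was 1.21 and 1.23 times as high on the left as on the right, and Pdgfra 1.00 and 1.04 times. With 1 pair at E14 and 2 at E16, no test of the sides was made.

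The genes around the PDGF system were examined in 5 lists of 71 genes, of which 70 were tested. From E13 to E14, 25 were higher and 3 lower, with a median log2 fold change of 0.14. From E14 to E16, 6 were higher and 13 lower, and from E13 to E16, 26 were higher and 10 lower. Of all genes tested, 11.3% were higher and 8.47% lower in the first of these comparisons, 15% and 13.1% in the second, and 21.6% and 19.6% in the third. In fits without the left tooth of embryo 3 these counts were 30 and 4, 15 and 17, and 33 and 13. In those fits 30.4%, 34.3%, and 48.7% of all genes were called in either direction. The median log2 fold change over all genes tested was -0.01, 0.00, and -0.01 in the same order.

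Among 7 proteases that process PDGF ligands, 3 were higher and 1 lower from E13 to E14. Of all genes, 19.7% were called in either direction in this comparison, and 41.3% from E13 to E16. St14, a membrane protease known to cleave latent PDGF ligands, rose by 0.91 (SE 0.14, adjusted p = 5.106e-05) on the log2 scale from E13 to E14 and by a further 0.40 (adjusted p = 0.03479) from E14 to E16. Plat, tissue plasminogen activator, an activator of the latent Pdgfc product, rose by 0.69 (adjusted p = 0.001787) at E14, and Furin, a proprotein convertase, by 0.51 (adjusted p = 0.02283). Pcsk5, another convertase, fell by 0.60 (adjusted p = 1.083e-05) at E14 and by 0.65 (adjusted p = 1.791e-06) at E16. Plau, urokinase, an activator of the latent Pdgfd product, rose by 0.81 (adjusted p = 0.0007724) from E14 to E16. Between E13 and E16, 4 of the 7 were called higher besides the call of Pcsk5 as lower, led by St14 at 1.31 (adjusted p = 6.106e-08), Pcsk5 at -1.25 (adjusted p = 1.334e-11), and Plau at 1.19 (adjusted p = 4.904e-06). St14 is a gene of epithelium, whose markers rose in the same comparisons, and the part of that rise in St14 was not tested.

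Of the 5 co-receptors and binding proteins, Sparc, a matrix protein that binds PDGF, rose by 0.72 (SE 0.22, adjusted p = 0.02226) on the log2 scale from E13 to E14, from a mean normalized count of 6918 to 11390. Nrp1, a co-receptor, fell by 0.27 (adjusted p = 0.007409) at E14 and by 0.33 (adjusted p = 0.0007515) from E14 to E16. A2m, a binding protein of the blood, was called higher from E14 to E16 at 2.37 (adjusted p = 0.00303), with means of only 3.49 and 18.3 normalized counts. Between E13 and E16 the calls were Sparc at 1.15 (adjusted p = 0.0001724) and Nrp1 at -0.60 (adjusted p = 1.536e-07).

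Among the 36 adaptors and effectors of the receptors, 6 were higher and 1 lower at E14, 3 and 3 from E14 to E16 (7 and 6 without the left tooth of embryo 3), and 10 and 7 from E13 to E16. The shares of all genes called in either direction were 19.7%, 28.1%, and 41.3%. The transcription factor genes Stat5a and Stat3 led at E14 with 1.08 (adjusted p = 0.0004694) and 0.48 (adjusted p = 0.006437). Pik3r1, a regulatory subunit of the PI3 kinase, fell by 0.33 (adjusted p = 0.002233), and Pik3cb, a catalytic subunit, rose by 0.33 (adjusted p = 0.01584). From E14 to E16 the calls included Nck2, an adaptor, at -0.51 (adjusted p = 7.383e-05), Pik3cb at 0.38 (adjusted p = 0.003861), and the adaptor Shc1 at -0.32 (adjusted p = 0.01348). Over the whole span from E13 they were Stat5a at 0.94, Pik3cb at 0.71, Stat3 at 0.66, and the adaptor Grb7 at 0.59 (adjusted p at most 0.006693).

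Of 10 attenuators that end receptor signaling, 6 were higher at E14 and none lower. They were led by Slc9a3r1, a scaffold that binds the receptors, at 0.58 (adjusted p = 0.0239), and Rasa1, a GTPase activator of Ras, at 0.45 (adjusted p = 0.0008625). The phosphatase genes Ptpn12 and Ptpn2 followed with 0.41 (adjusted p = 0.0004069) and 0.33 (adjusted p = 0.01417). From E14 to E16, Rasa1 fell by 0.40 (adjusted p = 0.001679) and Ptpn12 by 0.28 (adjusted p = 0.00768), the only attenuators called (6 without the left tooth of embryo 3, 3 higher and 3 lower). Between E13 and E16, 3 were higher and 1 lower, among them Slc9a3r1 at 0.93 (adjusted p = 0.0001934), the phosphatase gene Acp1 at -0.31 (adjusted p = 0.01597), and the ubiquitin ligase gene Cblb at 0.26 (adjusted p = 0.002153). Of all genes, 19.7%, 28.1%, and 41.3% were called in either direction in the 3 comparisons. From E14 to E16 without the left tooth of embryo 3, 34.3% were called.

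The genes that respond within minutes to PDGF, and to many other stimuli including handling, moved the most. Of 12 tested, 9 were higher and none lower at E14 (all 12 higher without the left tooth of embryo 3 at E16), and 6 were lower and none higher from E14 to E16. Of all genes tested, 11.3% were higher at E14, 13.1% were lower from E14 to E16, and 21.6% were higher from E13 to E16. Egr3, a zinc finger factor, had between 34.3 and 190 normalized counts at E13, between 2946 and 6349 at E14, and between 208 and 473 at E16. The teeth of E14 were far from those of both other stages, and the log2 fold change was 5.76 (SE 0.29, adjusted p = 1.507e-12) at E14 and -3.68 (SE 0.26, adjusted p = 8.229e-11) from E14 to E16. Egr2 had 302 to 471 normalized counts at E14, against at most 50.5 at E13 and 89.4 at E16, with a log2 fold change of 4.003 (adjusted p = 8.094e-10) and then -2.50 (adjusted p = 1.277e-07). Fosb and Egr1 varied more widely between the E14 teeth. Fosb ranged from 17.7 to 9131 normalized counts at E14 and Egr1 from 967 to 11470. Their log2 fold changes at E14 were 6.44 (SE 1.12, adjusted p = 0.0001739) and 4.31 (SE 0.50, adjusted p = 8.635e-07), and from E14 to E16 -3.71 (adjusted p = 0.003657) and -2.09 (adjusted p = 0.0008924). Between E13 and E16, 8 were higher and none lower, led by Fosb at 2.73 (adjusted p = 0.04521), which was 2.39 (adjusted p = 0.0924) without the left tooth of embryo 3, Egr1 at 2.21, Egr3 at 2.08, and Fos at 1.80 (adjusted p = 0.02849). Which stimulus these genes responded to was not measured.

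**Figure D4:**
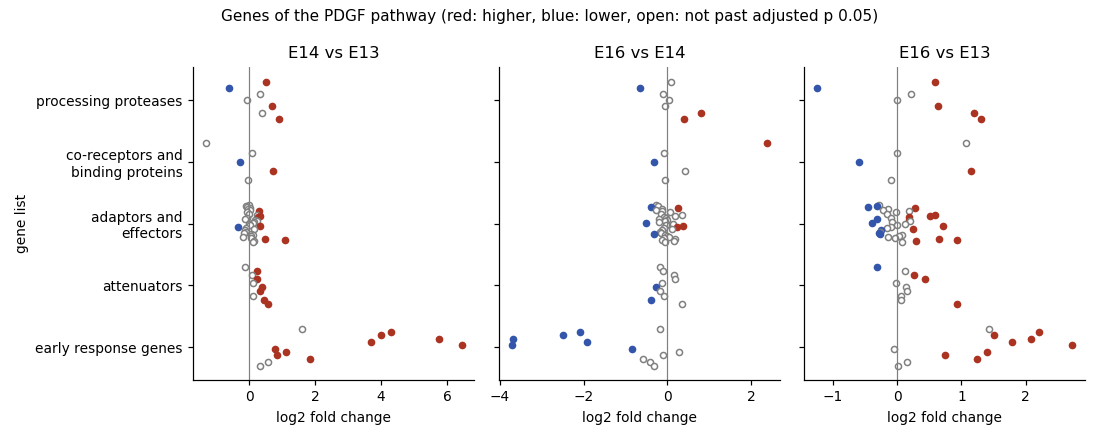
Log2 fold change of each tested gene of the 5 PDGF pathway lists (rows) in the 3 comparisons (panels, each with its own x axis), with genes called higher in red, called lower in blue, and not called as open circles. The early response genes extend to 6.44 at E14 and to -3.71 from E14 to E16, while most adaptors and effectors lie near 0.

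The relatives of the ligands and receptors were examined in the same way. Of the 5 ligands of the VEGF family, Vegfc, which drives the growth of lymph vessels, fell by 0.91 (SE 0.12, adjusted p = 9.311e-06) on the log2 scale from E13 to E14, and Pgf, placental growth factor, fell by 0.95 (SE 0.13, adjusted p = 3.891e-06) from E14 to E16. From E13 to E16, Vegfc was at -1.13 (adjusted p = 7.171e-08), Pgf at -0.94 (adjusted p = 2.292e-06), and Vegfa at 0.19 (adjusted p = 0.04639). Of the 5 related receptors tested, Csf1r, the receptor of macrophages, rose by 0.86 (SE 0.17, adjusted p = 0.000891) at E14 and by 0.81 (SE 0.17, adjusted p = 0.0007773) at E16. Of 8 macrophage markers, 5 were higher at E14 and all 8 from E13 to E16, where 11.3% and 21.6% of all genes were higher. Kit, the receptor of stem cell factor, rose by 0.85 (SE 0.10, adjusted p = 6.167e-07) from E14 to E16. Between E13 and E16, Csf1r was at 1.67 (adjusted p = 3.067e-08), Kit at 0.64 (adjusted p = 1.792e-05), and Flt1 at 0.37 (adjusted p = 0.02036). With the left tooth of embryo 3 left out, 4 of the 5 receptors were higher from E14 to E16 and all 5 from E13 to E16, in place of 2 and 3. Of all genes, 34.3% and 48.7% were called in either direction without that tooth, in place of 28.1% and 41.3%.

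The E15 teeth were compared only within the second table, of estimated counts, in which all 6 PDGF genes are listed. Pdgfb had a mean of 214 ± 41.6 (SD, n = 7) normalized estimated counts at E13, 382 ± 113 (n = 6) at E15, and 505 ± 128 (n = 7) at E16, and Pdgfc had 999 ± 115, 670 ± 110, and 535 ± 103. From E13 to E15, Pdgfb rose by 0.88 (SE 0.20, adjusted p = 0.001625) on the log2 scale and Pdgfc fell by 0.53 (SE 0.13, adjusted p = 0.003432). In this comparison 26.8% of the 13447 genes tested were called, 18.3% higher and 8.49% lower. Pdgfa had 1563 ± 180 at E13, 2066 ± 414 at E15, and 1695 ± 340 at E16. The 6 E15 teeth ranged from 1610 to 2464 in Pdgfa, and the change from E13 was 0.45 (SE 0.14, adjusted p = 0.01905), which fell to 0.39 without the right tooth of embryo 6 (adjusted p = 0.056) or the left tooth of embryo 8 (adjusted p = 0.0528).

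Pdgfra had 10657 ± 663 normalized estimated counts at E13, 8677 ± 563 at E15, and 7688 ± 1124 at E16, and every E15 tooth (at most 9532) lay below every E13 tooth (at least 9979). The change was -0.25 (SE 0.10, adjusted p = 0.05135), and -0.25 (adjusted p = 0.001271) without the left tooth of embryo 3 at E16. The share of all genes for which the E13 and E15 teeth did not overlap was not computed. Pdgfrb had 4561 ± 271 at E13, 4240 ± 574 at E15, and 3631 ± 1036 at E16, with a change of -0.06 (adjusted p = 0.8151). Pdgfd had 212 ± 33.9, 268 ± 87.7, and 269 ± 99.4, with a change of 0.38 (adjusted p = 0.2253). From E15 to E16 none of the 6 genes was called, and 6.33% of all genes were called. DESeq2 also called none of the 6. An unadjusted edgeR p below 0.05 was reached by 3 of them (Pdgfa, Pdgfc, and Pdgfra) and by 17.4% of all genes. The E15 libraries were deposited later with other processing notes, so stage and deposit cannot be told apart.

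**Figure D5:**
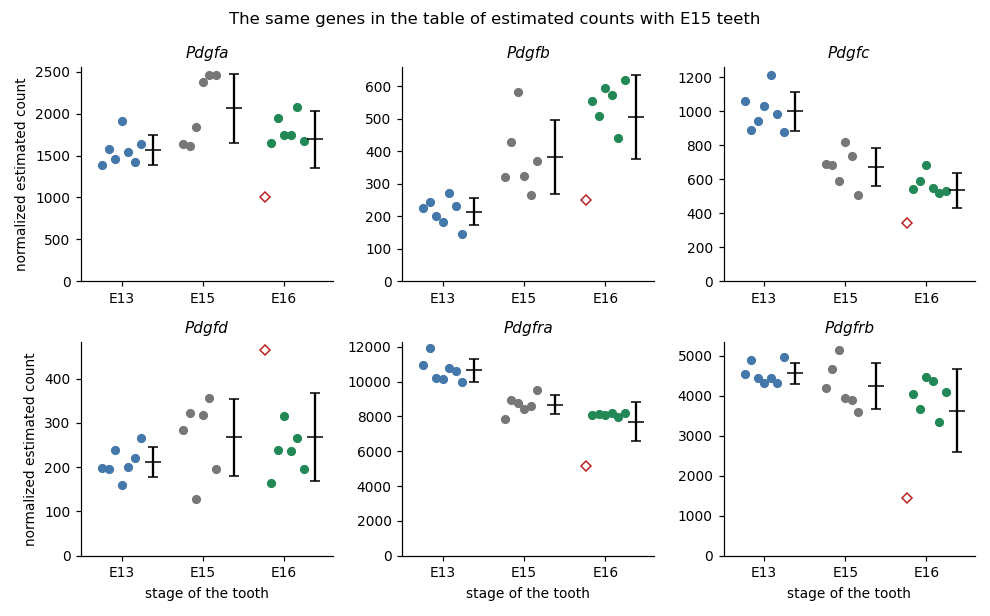
Normalized estimated count of the 6 PDGF genes in each tooth of E13 (n = 7), E15 (n = 6), and E16 (n = 7), with the mean and SD in black and, as an open red diamond, the E16 left tooth of embryo 3. The E15 means of Pdgfb and Pdgfc (382 and 670) lie between those of E13 and E16, and the E15 teeth of Pdgfa spread from 1610 to 2464.

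For each PDGF gene, the protein-coding genes with the most similar pattern were found by the Pearson correlation of log2(normalized count + 1) over the 21 teeth, among 14564 genes. The teeth share stage, depth, and makeup, so r is given as a description. For Pdgfb these were Lfng (r = 0.957), a glycosyltransferase that modifies Notch, Inf2 (0.947), and Unc5b (0.943), a netrin receptor. With the left tooth of embryo 3 at E16 left out they were 0.970, 0.949, and 0.939. For Pdgfc they were Pcdh17 (0.960), a protocadherin, Peg10 (0.960), an imprinted gene, and Ssbp3 (0.956). For Pdgfra they were Iglon5 (0.977), Fbn2 (0.972), which encodes a fibrillin of the matrix, and Vash2 (0.963), and without that tooth 0.953, 0.929, and 0.901. For Pdgfrb they were Acly (0.973), an enzyme of lipid synthesis, Axl (0.971), a receptor tyrosine kinase, and Tril (0.965).

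Pdgfa and Pdgfd had weaker matches. The most similar genes to Pdgfa were Sh3bp5 (0.924), Rnf114 (0.921), and Stip1 (0.915), and without the left tooth of embryo 3 at E16 these were 0.790, 0.796, and 0.761. For Pdgfd they were Emc2 (0.832), Cep112 (0.820), and Vps4b (0.815), and without that tooth 0.729, 0.710, and 0.703. After the mean of each stage was subtracted, the most similar genes were Chaf1a (0.939), Psmd7 (0.934), and Anp32b (0.932) for Pdgfa, Rrn3 (0.937), Galnt10 (0.925), and Kpna6 (0.920) for Pdgfb, and Mras (0.911), Tmem189 (0.896), and B630019K06Rik (0.890) for Pdgfc. For Pdgfd they were Emc2 (0.835), Cep112 (0.811), and Mphosph8 (0.799), for Pdgfra Crkl (0.967), Zfp46 (0.966), and Slc9a3r2 (0.964), and for Pdgfrb Pxdn (0.974), Col6a3 (0.969), and Akt1 (0.968). These 18 values, computed without the left tooth of embryo 3 at E16, lay between 0.693 and 0.859. Between the receptors, r of the deviations was 0.923 with that tooth and 0.613 without it.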

How the data were processed

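RNAseq libraries of single molar tooth germs were grouped by the stage in the sample labels. Per the labels and the paper's methods, the authors filtered the reads, aligned them with STAR to GRCm38 (Ensembl release 90), and deposited whole-number counts per gene made with HTSeq, without normalization. A second deposited table holds estimated counts (salmon) of 14185 genes in E13, E15, and E16 teeth, which were rounded here. Of 28 samples, 1 E15 tooth was not analysed here.

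Levels are counts divided by DESeq2 (version 1.42.0) size factors, and per kilobase of summed exon length from GENCODE (GRCm38) between genes. Changes were tested in 1 fit over 21 teeth by edgeR's quasi-likelihood test (edgeR 4.0.16 in R 4.3.3), TMM normalization, and the filterByExpr filter, with Benjamini-Hochberg adjustment over 19101 genes at 0.05. The labels do not say whether teeth come from separate litters. Both teeth were sequenced from 1 E14 embryo and 2 E16 embryos and counted as separate replicates, so the p-values measure the spread between teeth. The common coefficient of variation between teeth was 21.2%, so that the spread between teeth, not depth, limits the precision. The salmon table was fitted separately. Pairs of teeth differed by more than sampling noise. The fits were tested on simulated data.

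The 6 genes and all lists were chosen with earlier results of these data known. Named genes are the 6 PDGF genes, in each list the up to 4 called genes with the largest log2 fold change in either direction, and the 3 most similar genes per PDGF gene. Some list genes that this rule names are not reported here. Promoter sequences are from RefSeq (GRCm38.p6), where 4 of the 6 genes matched. The effect of the alternatives is given in the closing section.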

Additional observations from a re-analysis of the deposited data

Results flagged for a closer look

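The left tooth of embryo 3 at E16 was far from the other 6 E16 teeth in 3 of the 24 groups of teeth examined for single outlying samples, a rule that chance meets in about 1 in 20 groups. Its normalized count was 936 for Pdgfa, where the others lay between 1748 and 2186. For Pdgfra it was 4952, against 8277 to 8625. For Pdgfrb it was 1491, against 3555 to 4799. Its count of Pdgfd, at 452, was above the 171 to 346 of the others without being flagged. Among E16 teeth, this tooth had the lowest sums of dental mesenchyme, epithelium, mural cell, endothelium, macrophage, Schwann cell and glia, bone, and cartilage markers. Its sums of megakaryocyte and platelet, skeletal muscle, and red cell markers lay within the range of the other E16 teeth. The part of these differences in its values of the PDGF genes was not tested.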

How the results depend on the processing

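The fold changes of the PDGF genes were recomputed with other processing and with each tooth left out in turn. Of the 810 values, 773 kept direction and call, 20 gained a call, 2 lost it, and 15 changed sign. The sign changes had adjusted p of at least 0.483. Most of the 810 values came from leaving out a tooth, so these counts do not measure the dependence on processing alone. With upper-quartile normalization, Pdgfc (-0.31, adjusted p = 0.0346) and Pdgfra (-0.28) were called from E13 to E14, Pdgfra (-0.20) from E14 to E16, and Pdgfrb (-0.34, adjusted p = 0.0396) from E13 to E16. With only the 2 stages compared in the fit, Pdgfc (-0.27), Pdgfra (-0.25), and Pdgfrb (0.38) were called from E13 to E14. In the salmon table Pdgfra was called from E13 to E15 with DESeq2 (-0.30) and with RLE normalization (-0.30), and the change of Pdgfd from E15 to E16 became 0.0053 and 0.0046 with these.

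Embryo numbers name different embryos at each stage and pair no teeth. Of 19 teeth with a tooth of the same number at another stage, 5 correlated best with such a tooth. The number that chance would give was not computed. With the embryo number as a replicate block, Pdgfd from E13 to E14 was 0.054 and Pdgfa from E13 to E16 -0.057, and the genes changed were 1677 in place of 3767 from E13 to E14 and 5210 in place of 7887 from E13 to E16. The salmon table, with fewer genes, gave 4889 from E13 to E16.

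Leaving out each tooth in turn, the log2 fold change from E13 to E14 ranged from -0.32 to -0.22 for Pdgfc, -0.11 to 0.022 for Pdgfd, -0.27 to -0.22 for Pdgfra, and 0.35 to 0.40 for Pdgfrb, and the genes changed from 3077 to 5855. From E14 to E16 it ranged from -0.089 to 0.075 for Pdgfa, 0.20 to 0.44 for Pdgfd, and -0.23 to -0.12 for Pdgfra. From E13 to E16 it ranged from 0.056 to 0.22 for Pdgfa, 0.15 to 0.39 for Pdgfd, and -0.37 to -0.17 for Pdgfrb. From E13 to E15 it ranged from 0.39 to 0.51 for Pdgfa and from -0.28 to -0.23 for Pdgfra. From E15 to E16 it ranged from -0.20 to 0.088 for Pdgfd, and the genes changed from 671 to 1382, the latter without the left tooth of embryo 3 at E16. The cause of these differences was not tested. Robust estimation of the dispersion was added after seeing the data and changed no call of a PDGF gene. Strand was not given, and single teeth bound the precision.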
